A study of Mus musculus with 16 samples.

Results

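A set of 6 matrix metalloproteinase (MMP) genes and 4 tissue inhibitor of metalloproteinases (TIMP) genes were followed in brown adipose tissue (BAT) of obese mice: *Mmp2*, *Mmp3*, *Mmp9*, *Mmp12*, *Mmp14*, *Mmp19*, *Timp1*, *Timp2*, *Timp3* and *Timp4*. They are a list of 10 genes taken by name from 49066 gene symbols, and all 10 were found. No measured value was used to pick them, but the list was drawn up after earlier results of these data were known. In the BAT of male GDF15 BKO (KO) mice, *Timp2* was 1.98 times and *Timp1* 2.94 times the level of male WT controls, with no overlap between the groups, and *Mmp12* was 6.92 times the WT level with groups that overlapped. None of the 3 stood apart in females. *Timp1* was low in males, with means of 0.312 TPM in WT and 0.918 TPM in KO mice. Among 12177 genes with a mean of at least 1 TPM in males, 9.54% had every KO mouse above every WT mouse. No member passed an adjusted p of 0.05 in any comparison when each sex was fitted on its own.

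RNA was sequenced from whole BAT of 8 males and 8 females, 4 of each genotype, on a C57BL6/J background. All of them carried floxed *Gdf15* alleles (Gdf15 fl/fl), and the KO mice also carried a Cre transgene under the *Ucp1* promoter, Tg(Ucp1-cre)1Evdr. Cre driven by *Ucp1* deletes in thermogenic adipocytes, so the other cells of the tissue kept the gene. Because the WT littermates had no Cre, loss of *Gdf15* and presence of the transgene cannot be told apart. The mice were 18 weeks old and had eaten a high-fat diet (HFD, 60% of calories from fat) for 12 weeks from 6 weeks of age. GDF15 is a stress-induced hormone of the TGF-beta superfamily, and the comparison asks how BAT differs on HFD when its brown adipocytes cannot make it.

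Values are in TPM, the abundance of a transcript divided by its length and scaled to the same total in each library, so levels of different genes can be set side by side. The number of reads behind a TPM value is not known, and no counting interval can be given. Mitochondrial transcripts took 34.5% to 59.8% of the TPM, and male WT replicate 1, which held the highest share, was the lowest of all 16 libraries for 6 of the members. In female WT replicate 4 a transcript that could not be matched to a gene took 16.5% of the TPM. *Gdf15* itself ran from 0.368 to 3.81 TPM in male WT and from 0.0801 to 0.272 TPM in male KO mice. In females it ran from 0.0622 to 0.311 TPM in WT mice, was listed at 0 in 3 KO mice and was 0.0794 TPM in the other. The brown adipocyte markers *Ucp1* (2353 to 4423 TPM) and *Cidea* (989.8 to 1915 TPM) were high in all 16 libraries, while the skeletal muscle marker *Acta1* ran from 0.207 to 1237 TPM and varied widely within each group.

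MMPs are zinc-dependent proteases that cut collagens, fibronectin, laminins and other proteins of the extracellular matrix. Most are secreted as inactive proenzymes whose propeptide must be removed, and TIMPs bind the active site of the mature enzymes and block it. *Mmp14* encodes a protease held in the cell membrane, which uses TIMP2 as a bridge to bind and activate the MMP2 proenzyme, so that the same inhibitor can serve activation or block it. In adipose tissue these enzymes take part in the remodelling of the matrix around fat cells and vessels as the depot grows. Transcript levels report none of the activation steps.

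The promoters of the members with the widest spread between groups, *Mmp12* and *Timp1*, are shown here, with that of *Mmp3* because it lies close to *Mmp12* in the MMP gene cluster of chromosome 9. RefSeq promoter windows on GRCm38.p6 were found for 7 of the 10 members, as 8 windows, and the bases before the first annotated exon are printed 5′ to 3′ on the strand of the gene. *Mmp12* has 2 annotated start regions. Capitals mark matches to 4 short motifs on either strand. The AP-1 motif was searched as TGANTCA. The PEA3 motif, bound by ETS factors, was searched as AGGAAG. GC boxes were searched as GGGCGG, and TATA boxes as TATAAA.

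*Mmp12*, upstream start, chr9:7344147-7344380, plus strand: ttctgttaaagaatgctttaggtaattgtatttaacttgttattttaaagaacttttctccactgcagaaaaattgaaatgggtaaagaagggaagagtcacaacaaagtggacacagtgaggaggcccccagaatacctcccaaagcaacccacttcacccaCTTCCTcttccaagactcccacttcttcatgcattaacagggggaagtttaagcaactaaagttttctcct
*Mmp12*, downstream start, chr9:7347124-7347373, plus strand: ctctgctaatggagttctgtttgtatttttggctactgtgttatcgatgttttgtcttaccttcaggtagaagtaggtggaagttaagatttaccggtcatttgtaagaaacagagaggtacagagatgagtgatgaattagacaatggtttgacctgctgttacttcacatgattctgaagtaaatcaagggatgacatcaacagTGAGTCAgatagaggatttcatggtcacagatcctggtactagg
*Mmp3*, chr9:7445572-7445821, plus strand: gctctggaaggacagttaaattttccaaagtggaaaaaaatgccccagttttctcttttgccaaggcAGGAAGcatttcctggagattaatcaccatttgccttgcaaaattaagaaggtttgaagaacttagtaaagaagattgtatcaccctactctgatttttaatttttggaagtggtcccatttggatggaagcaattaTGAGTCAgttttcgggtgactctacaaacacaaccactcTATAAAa
*Timp1*, chrX:20869916-20870165, plus strand: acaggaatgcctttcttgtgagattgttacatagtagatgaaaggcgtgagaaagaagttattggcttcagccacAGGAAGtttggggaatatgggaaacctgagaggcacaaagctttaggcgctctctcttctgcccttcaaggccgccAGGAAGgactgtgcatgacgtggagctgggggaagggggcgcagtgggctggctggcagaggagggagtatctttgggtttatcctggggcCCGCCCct

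The downstream *Mmp12* start and *Mmp3* each held the AP-1 letters, beginning 44 and 46 bases before the start. A match to them was found in 6.75% of all 32851 windows of 250 bases, and in 2 of the 8 windows of the members. The upstream *Mmp12* start held the PEA3 letters, and *Timp1* held them at 175 and 99 bases before the start, with the GC box letters 8 bases before it. PEA3 letters were found in 29.5% of all windows, GC box letters in 32.7% and TATA letters in 12.4%. No 2 matches of different motifs overlapped in these windows. The matches are descriptions of sequence and were not tested for factor binding.

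Over the 16 libraries the members spanned a wide range of levels, and an inhibitor was at the top. *Timp3*, the inhibitor that binds to the matrix and also blocks some ADAM proteases, averaged 47.0 ± 13.6 TPM (SD, n = 16). It was above every other member in each of the 16 libraries. *Timp4*, an inhibitor known for its expression in heart and fat, averaged 14.6 ± 5.67 TPM. *Mmp19*, a protease of basement membrane proteins, was the highest metalloproteinase at 12.2 ± 2.78 TPM, and *Timp4* was above it in 10 of 16 libraries. *Mmp2*, or gelatinase A, averaged 8.95 ± 2.63 TPM and *Timp2* 7.80 ± 2.45 TPM, with *Mmp2* above *Timp2* in 12 libraries. These 4 neighbours in the order were not separated by their spread over the libraries.

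The membrane protease *Mmp14* averaged 3.91 ± 1.20 TPM and was below *Timp2* and above *Mmp3* in all 16 libraries. *Mmp3*, or stromelysin 1, averaged 1.44 ± 0.809 TPM. *Mmp12*, or macrophage metalloelastase, averaged 1.23 ± 1.84 TPM, an SD larger than its mean. *Timp1* averaged 0.486 ± 0.305 TPM and *Mmp9*, or gelatinase B, averaged 0.363 ± 0.131 TPM. The order of the last 3 was not fixed, since *Mmp12* was above *Timp1* in 8 of 16 libraries and *Timp1* above *Mmp9* in 9. The highest library of *Mmp12* was 95.6 times its lowest, against 2.54 to 9.79 times for the other 9 members.

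*Timp3* made up 60.6% to 76.0% of the summed TIMP level, and *Mmp19* with *Mmp2* 67.6% to 88.3% of the summed level of the 6 metalloproteinases. Summed over genes, the inhibitors were above the metalloproteinases in each of the 16 libraries. The sum of the TIMPs was 60.04 ± 21.4 TPM in WT males and 88.5 ± 8.23 TPM in KO males (SD, n = 4), and 52.1 ± 6.002 TPM in WT females and 78.8 ± 19.7 TPM in KO females. The sum of the metalloproteinases was 24.6 ± 3.87, 34.9 ± 3.84, 25.4 ± 4.39 and 27.5 ± 4.08 TPM in the same order.

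**Figure D1:**
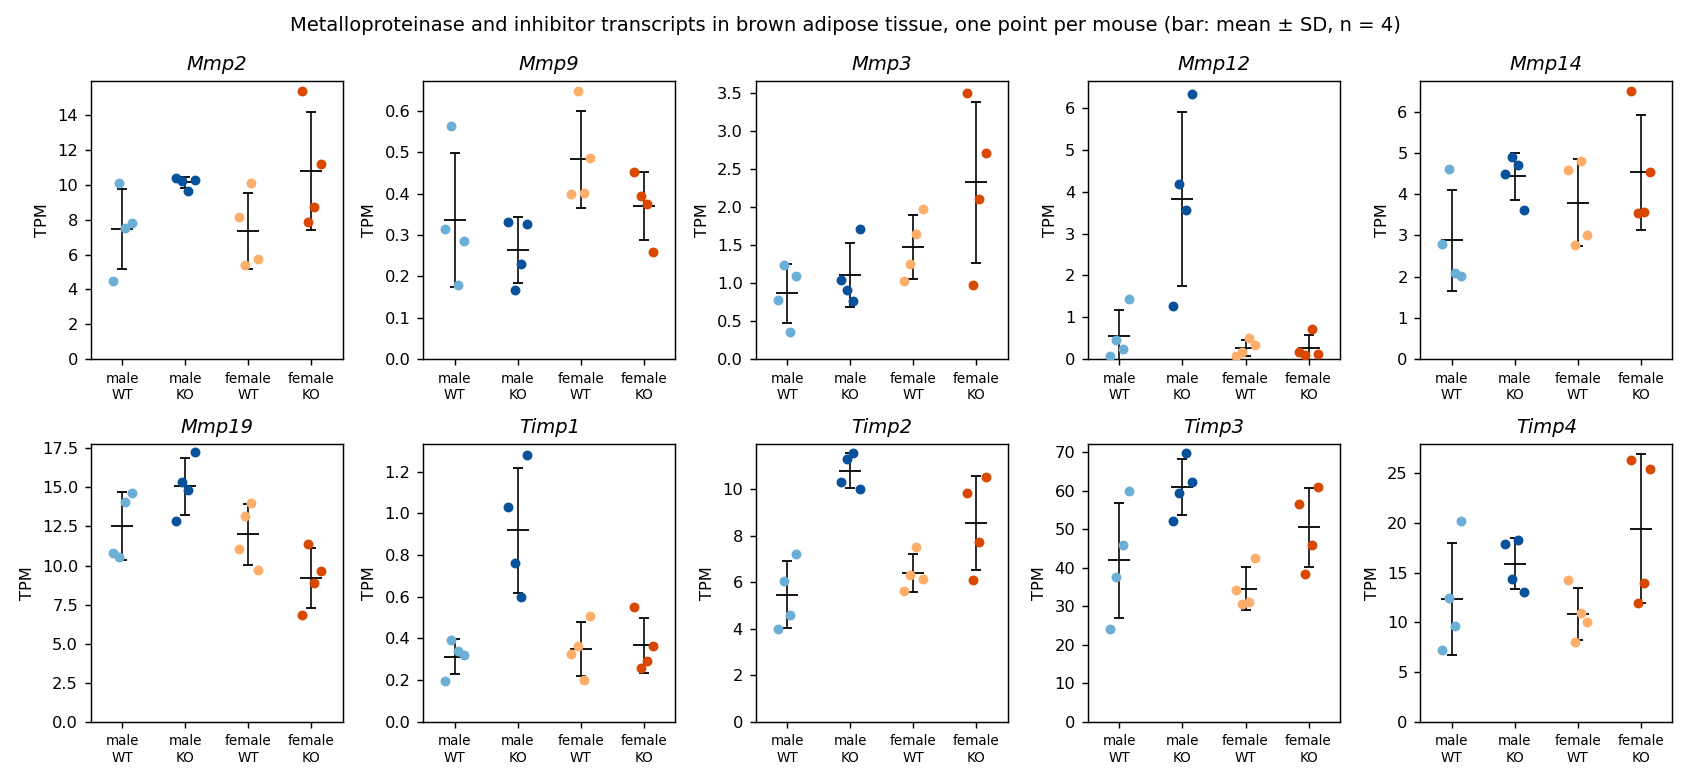
TPM of each member (y axis, from 0, a scale of its own in each panel) in WT and KO mice of each sex, with a point per mouse and a bar for the mean ± SD (n = 4; bars are cut at 0). *Timp2* and *Timp1* of male KO mice lie above all male WT mice, at 10.0 to 11.6 against 4.01 to 7.19 TPM and at 0.599 to 1.28 against 0.196 to 0.393 TPM, while the female groups of both genes overlap.

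For each gene the log2(TPM + 0.5) values were compared with limma, which fits all genes together and adjusts p over all of them, and genes whose mean TPM in the libraries compared was under 1 were left out of that fit. The added 0.5 makes a fold change of a low gene smaller than the ratio of its TPM values. Of the 10 members 7 were tested in males, and *Mmp3*, *Mmp9* and *Timp1* were under the minimum. None of the 7 passed an adjusted p of 0.05, as against 1 gene (0.00821%) of 12177 in limma. At an unadjusted p under 0.05, 5 of the 7 (*Mmp12*, *Timp2*, *Mmp14*, *Timp3* and *Mmp2*) had the higher mean in KO mice, beside 17.7% of all genes in that direction. With all 16 libraries in 1 fit, which takes the spread from the females too, *Timp2* passed (adjusted p = 0.0324 in limma), beside 0.328% of all genes. The 7 had a median log2 fold change of 0.60 in males, and all 12177 genes had one of 0.16. The whole distribution was thus shifted, and scaling the libraries by median of ratios brought the median of all genes to 0.00 without turning the direction of any of the 7.

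**Figure D2:**
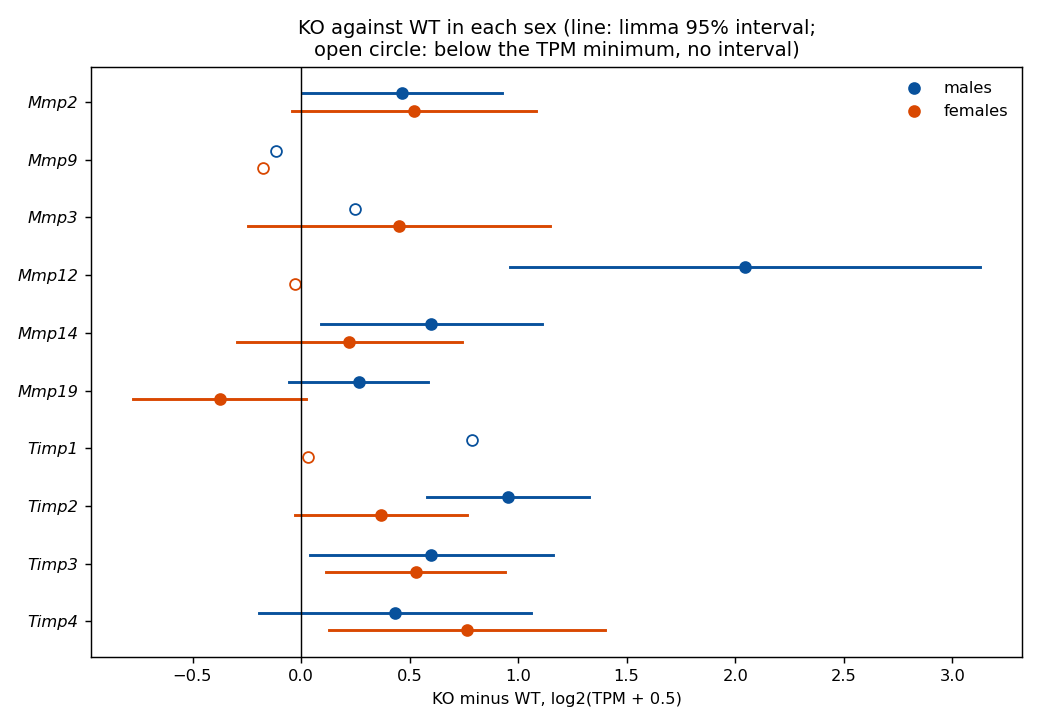
Difference between KO and WT mice (x axis, log2(TPM + 0.5)) for each member (y axis) in males and females, with limma 95% intervals as lines and open circles without intervals for members under the TPM minimum. In males the *Mmp12*, *Timp2*, *Mmp14*, *Timp3* and *Mmp2* intervals lie above 0, and in females those of *Timp3* and *Timp4*.

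Among the inhibitors, *Timp2* and *Timp1* had male groups that did not overlap, and those of *Timp3* and *Timp4* did. *Timp2* (chr11:118301069-118355740 on GRCm38, minus strand), the inhibitor with the role in MMP2 activation, was 4.01, 6.03, 4.60 and 7.19 TPM in the 4 male WT mice and 10.3, 11.3, 11.6 and 10.0 TPM in the 4 male KO mice. The lowest of the KO values exceeded the highest of the WT values. The log2 fold change was 0.95 (SE 0.17, limma adjusted p = 0.123). *Timp2* was among the genes that the study itself picked out from these male libraries, so its difference here is not independent evidence. By qPCR of BAT the study also reported *Timp2* as induced in male KO mice. It reported the fibrosis genes induced in males as unchanged in female KO mice.

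*Timp1* (chrX:20870166-20874735, plus strand), a secreted inhibitor induced in inflamed and fibrotic tissue, was low in every group. It was 0.196, 0.393, 0.340 and 0.319 TPM in male WT mice and 1.03, 0.763, 0.599 and 1.28 TPM in male KO mice. Again the 2 groups did not overlap, and the KO mean was 2.94 times the WT mean. The exact permutation test gave p = 0.0286 (two-sided), the smallest p that 4 against 4 mice can give. Over the members under the TPM minimum 9 such tests were run. After Benjamini-Hochberg adjustment over those 9, the exact permutation p was 0.257. With no TPM minimum, limma gave an adjusted p of 0.283. Of the members, 2 had every male KO mouse above every male WT mouse, and of the 7 in the limma fit this held for *Timp2* alone, beside 9.54% of the genes in that fit.

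*Timp3* (chr10:86300372-86349506, plus strand) was 24.2, 37.5, 46.0 and 59.9 TPM in male WT and 52.1, 59.5, 69.9 and 62.3 TPM in male KO mice. The lowest WT mouse was well below the rest and the highest WT mouse was among the KO values. Its log2 fold change was 0.60 (SE 0.25, limma adjusted p = 0.247), and 0.36 without male WT replicate 1. *Timp4* (chr6:115241892-115252205, minus strand) was 7.22, 12.5, 9.58 and 20.2 TPM in WT and 17.8, 14.3, 18.3 and 13.05 TPM in KO mice, so that the highest value belonged to a WT mouse. Its log2 fold change was 0.43 (SE 0.28, limma adjusted p = 0.404), 0.22 without male WT replicate 1 and 0.69 without male WT replicate 4.

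Among the metalloproteinases, *Mmp12* (chr9:7344381-7369499, plus strand), an elastin-cutting enzyme made chiefly by macrophages, had the largest difference in males. It was 0.0662, 0.466, 0.245 and 1.44 TPM in male WT mice and 1.27, 4.17, 3.56 and 6.33 TPM in male KO mice. Of the KO mice 3 were above every WT mouse, and the lowest KO mouse was below the highest WT mouse. The log2 fold change was 2.04 (SE 0.48, limma adjusted p = 0.163). Since BAT was sequenced whole, fewer or more cells of a type and less or more RNA per cell cannot be told apart, here or in any other comparison.

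*Mmp14* (chr14:54431612-54445364, plus strand) was 2.79, 4.62, 2.08 and 2.01 TPM in male WT and 4.49, 4.91, 4.70 and 3.62 TPM in male KO mice. A single WT mouse reached the KO values. Its log2 fold change was 0.60 (SE 0.22, limma adjusted p = 0.228). *Mmp2* (chr8:92827291-92853420, plus strand), the substrate of MMP14 and the gelatinase of resting connective tissue, was 4.47, 10.1, 7.53 and 7.83 TPM in male WT and 10.4, 10.3, 9.64 and 10.3 TPM in male KO mice. The KO mice lay within 1 TPM of each other while the WT mice spread over more than 5, and the log2 fold change was 0.47 (SE 0.20, limma adjusted p = 0.262). Without male WT replicate 1, the lowest, it was 0.26.

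*Mmp19* (chr10:128790910-128800824, plus strand) was 10.8, 10.5, 14.1 and 14.7 TPM in male WT and 12.9, 15.3, 14.8 and 17.3 TPM in male KO mice. The log2 fold change was 0.26 (SE 0.14, limma adjusted p = 0.326). *Mmp3* (chr9:7445822-7455975, plus strand), which also activates other proenzymes, ran from 0.358 to 1.23 TPM in male WT and from 0.758 to 1.72 TPM in male KO mice (exact permutation test, two-sided p = 0.486). *Mmp9* (chr2:164940780-164955850, plus strand), the gelatinase stored in neutrophils, ran from 0.179 to 0.562 TPM and from 0.168 to 0.332 TPM (exact permutation test, two-sided p = 0.571). The male groups of these 3 genes overlapped.

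In the deposited library names a leading label, whose meaning is not given in the sources used here, was shared by 2 male WT and 3 male KO mice. Within those 5 libraries, for which no test was run, the KO minus WT difference in log2(TPM + 0.5) was 2.07 for *Mmp12*, 0.94 for *Mmp14*, 0.87 for *Timp2* and 0.70 for *Timp1*. It was 0.37 for *Mmp2*, 0.28 for *Timp3*, 0.13 for *Mmp19* and 0.11 for *Timp4*. The differences of *Timp3* and *Timp4* were thus less than those over all 8 male mice, and those of *Mmp12* and *Timp2* were near them.

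In females the inhibitors *Timp3* and *Timp4* had the lowest p-values and *Mmp19* had the lower mean in KO mice. Again 7 members were in the fit, now with *Mmp3* in place of *Mmp12*. None passed an adjusted p of 0.05, like all 12141 genes tested (0.0%, limma), and with all 16 libraries in 1 fit no member passed either. At an unadjusted p under 0.05, 2 of the 7 were higher in KO mice, beside 11.6% of all genes, and none was lower, beside 5.46%. No member had every female KO mouse above every female WT mouse, beside 4.9% of the genes in the fit. The median log2 fold change was 0.45 for the 7 members and 0.10 for all genes.

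*Timp4* was 14.2, 7.98, 10.9 and 10.1 TPM in female WT and 26.3, 11.95, 13.98 and 25.4 TPM in female KO mice. Of the KO mice 2 were far above all WT mice and the other 2 lay among them. The log2 fold change was 0.76 (SE 0.28, limma adjusted p = 0.251). *Timp3* was 34.2, 30.7, 31.0 and 42.5 TPM in WT and 56.6, 38.3, 45.9 and 61.0 TPM in KO mice, and 3 of the KO mice were above every WT mouse. Its log2 fold change was 0.53 (SE 0.18, limma adjusted p = 0.238).

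*Timp2* was 5.61, 6.32, 7.51 and 6.14 TPM in female WT and 9.83, 6.08, 7.75 and 10.5 TPM in female KO mice. It was above every WT mouse in 3 KO mice and within their range in the other (log2 fold change 0.37, SE 0.18, limma adjusted p = 0.316). *Timp1* was 0.326, 0.363, 0.198 and 0.509 TPM in WT and 0.553, 0.260, 0.291 and 0.362 TPM in KO mice, with means of 0.349 and 0.366 TPM (exact permutation test, two-sided p = 0.914). The female *Timp1* values all lay below the lowest male KO value, 0.599 TPM.

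*Mmp19* was 11.1, 13.2, 14.02 and 9.74 TPM in female WT and 6.80, 11.4, 8.91 and 9.66 TPM in female KO mice. Of the KO mice 3 were below every WT mouse (log2 fold change -0.37, SE 0.18, limma adjusted p = 0.314). *Mmp2* was 8.14, 5.41, 10.1 and 5.78 TPM in WT and 15.4, 7.87, 8.72 and 11.2 TPM in KO mice, with overlap (log2 fold change 0.52, SE 0.25, limma adjusted p = 0.317). *Mmp14* ran from 2.77 to 4.81 TPM in WT and from 3.53 to 6.50 TPM in KO mice (log2 fold change 0.22, SE 0.23, limma adjusted p = 0.5996). Female KO replicate 1 held the highest value of all 16 libraries for *Mmp2*, *Mmp3*, *Mmp14* and *Timp4*, and the lowest for *Mmp19*. Without that mouse the log2 fold change was 0.050 for *Mmp14*, 0.34 for *Mmp2*, 0.25 for *Mmp3*, 0.59 for *Timp4* and -0.25 for *Mmp19*. That of *Mmp14* was 0.10 without female WT replicate 2, 0.14 without female WT replicate 4 and 0.34 without female WT replicate 3.

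*Mmp3* was 1.03, 1.25, 1.64 and 1.98 TPM in female WT and 3.51, 0.980, 2.11 and 2.72 TPM in female KO mice. The KO mice held both the highest and the lowest female value, and the log2 fold change of 0.45 (SE 0.31) had a limma adjusted p of 0.448 and was 0.73 without female KO replicate 2. *Mmp12* was low in both female groups, at 0.0676, 0.173, 0.510 and 0.334 TPM in WT and 0.177, 0.0911, 0.722 and 0.111 TPM in KO mice (exact permutation test, two-sided p = 0.971). *Mmp9* ran from 0.398 to 0.648 TPM in WT and from 0.259 to 0.452 TPM in KO mice (exact permutation test, two-sided p = 0.143).

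By the leading label of the library names, females of both genotypes shared 2 labels, each with 1 KO mouse, set against 1 and 3 WT mice. The KO minus WT difference of *Timp3* was 0.72 and 0.41 within them, of *Timp4* 0.86 and 0.52, of *Timp2* 0.76 and 0.21 and of *Mmp19* -0.66 and -0.43, with no test. The direction within each label was that over all 8 female mice for these 4 genes.

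Whether KO mice differed from WT mice in the same way in both sexes was tested as the female effect minus the male effect, in 1 fit of all 16 libraries. Of the 10 members 8 were in that fit. None passed an adjusted p of 0.05, like all 12210 genes tested (0.0%, limma), and 3 had a smaller or opposite effect in females at an unadjusted p under 0.05, beside 11.7% of all genes in that direction and 2.51% in the other. The 3 were *Mmp12*, with a difference of -2.07 on the log2 scale (95% interval -3.38 to -0.76, limma adjusted p = 0.215), *Mmp19* with -0.64 (-1.13 to -0.15, limma adjusted p = 0.253) and *Timp2* with -0.58 (-1.11 to -0.05, limma adjusted p = 0.308). *Timp1* was under the TPM minimum, and its difference of -0.76 has no test in that fit. With 1 or 0.1 added to TPM in place of 0.5 that difference was -0.52 or -1.22, and the male log2 fold change of *Timp1*, 0.79, was 0.54 or 1.28. For *Timp3* the difference was -0.07 (-0.75 to 0.61) and for *Timp4* 0.33 (-0.57 to 1.23), intervals wider than the effect in either sex. The median over the 8 members was -0.23, and over all genes -0.06.

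In WT mice of the 2 sexes no member separated beyond the spread between mice. No member of the 7 tested passed an adjusted p of 0.05, beside 0.0664% of 12042 genes in limma, and none had an unadjusted p under 0.05, beside 3.43%. The lowest p belonged to *Mmp3*, at 1.47 ± 0.420 TPM in female and 0.868 ± 0.390 TPM in male WT mice (SD; log2 difference 0.55, SE 0.28, limma adjusted p = 0.9999). For the others the log2 difference between female and male WT mice ran from -0.21 (*Timp3*) to 0.38 (*Mmp14*) within the fit. The median was -0.01 for the 7 members and -0.05 for all genes.

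The levels were also split by annotated transcript. Of the 3 transcripts of *Mmp19*, *Mmp19-201* held 75.7% of the mean level and *Mmp19-203*, which opens 51 bases further upstream, held the rest. *Mmp19-201* differed little between groups, at 10.0 ± 1.37 TPM in WT and 9.81 ± 1.02 TPM in KO males, and 8.87 ± 0.916 TPM in WT and 8.27 ± 1.22 TPM in KO females (SD, n = 4). *Mmp19-203* was 2.18, 0.390, 2.27 and 5.25 TPM in male WT and 4.30, 5.41, 5.13 and 6.22 TPM in male KO mice. It was 2.69, 3.32, 4.61 and 1.89 TPM in female WT and 0, 1.79, 1.10 and 0.807 TPM in female KO mice. The 2 female groups did not overlap, though their nearest values were close, and the male groups did. No test was run on transcripts, whose split is an estimate where reads fit several of them. The share of all transcripts with female groups apart in this way is not given here. *Mmp19* shares exon bases with *Tmem198b* (4.82 TPM on average) on the opposite strand, and whether counting used the strand is not given in the sources used here.

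**Figure D3:**
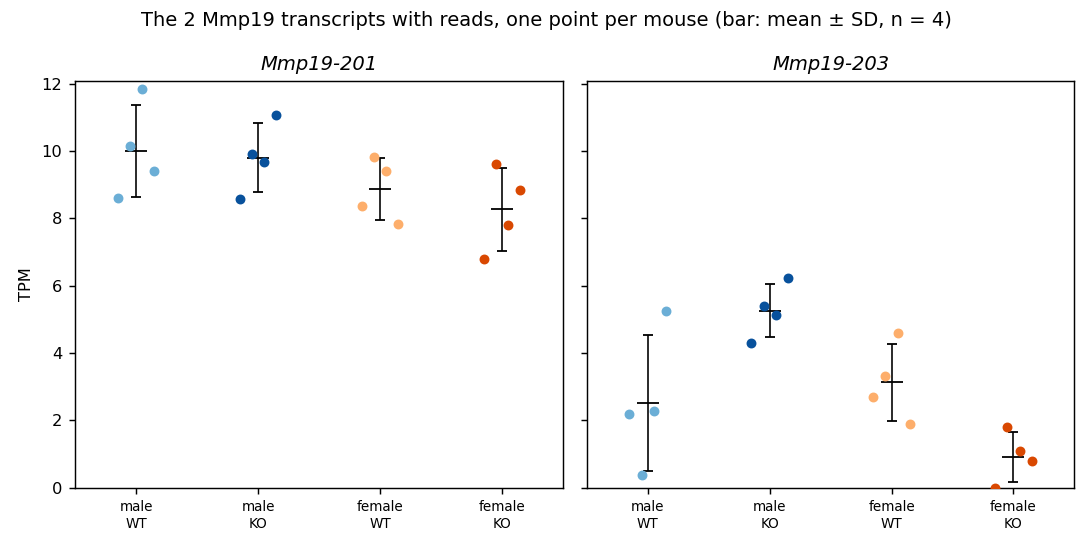
TPM (y axis, the same in both panels) of the transcripts *Mmp19-201* and *Mmp19-203* in the 4 groups, with a point per mouse and a bar for the mean ± SD (n = 4; bars are cut at 0). *Mmp19-201* lies between 6.80 and 11.8 TPM in all mice, while *Mmp19-203* is highest in male KO mice (4.30 to 6.22 TPM) and lowest in female KO mice (0 to 1.79 TPM).

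*Mmp12* and *Timp1* also split unevenly. *Mmp12-203*, which opens at the upstream start printed above, held 54.4% of the *Mmp12* level and was 0.115, 2.85, 2.30 and 4.02 TPM in male KO mice, against at most 0.852 TPM in the other 12 mice. *Mmp12-204*, from the downstream start region, was 0.929, 0.835, 0.557 and 1.62 TPM in male KO mice and at most 0.284 TPM elsewhere. *Mmp12-203* and *Mmp12-204*, from different start regions, thus both had their highest value in a male KO mouse. *Mmp12-204* is annotated as a target of nonsense-mediated decay, not as protein-coding. *Mmp12-206*, a retained-intron transcript of the downstream region, was highest in female WT replicate 4, at 0.334 TPM against at most 0.218 TPM in male KO mice. All of the *Timp1* level was assigned to *Timp1-201* in 14 libraries and all of it to *Timp1-202*, which opens 55 bases upstream at the end of the printed window, in the 2 other libraries, both male KO mice. *Timp2* and *Timp3* came almost whole from 1 transcript each, with 97.9% and 99.0% of their level, while *Timp4* was split between *Timp4-201* (64.4%) and *Timp4-202*. *Timp4* and *Timp3* lie inside *Syn2* and *Syn3* on the opposite strand and share exon bases with them, at 2.38 and 0.375 TPM on average for the 2 synapsin genes.

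To set proteases beside the inhibitors they pair with, log2 ratios of TPM + 0.5 were taken within each library and described without a test. The added 0.5 makes a ratio of low genes smaller in size than the ratio of their TPM values. *Mmp2* over *Timp2* was 0.14, 0.70, 0.66 and 0.11 in male WT mice and 0.01, -0.13, -0.25 and 0.04 in male KO mice. The 4 KO ratios all lay below the 4 WT ratios, with a mean difference of -0.49, since *Timp2* differed more than *Mmp2*. In females the ratio was 0.15 ± 0.35 in WT and 0.31 ± 0.24 in KO mice, with overlap. Apart from *Mmp2* over *Timp2* in males, the WT and KO groups of every ratio taken overlapped. *Mmp14* over *Timp2* was -0.85 ± 0.58 in male WT and -1.20 ± 0.11 in male KO mice, with overlap.

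*Mmp19* over *Timp3* was -1.64 ± 0.37 in WT and -1.98 ± 0.16 in KO males, and -1.49 ± 0.44 in WT and -2.39 ± 0.53 in KO females, a difference of -0.90 in females, where the protease was lower and the inhibitor higher in KO mice, with overlapping groups. The summed metalloproteinases over the summed inhibitors were lower in KO mice by 0.12 in males and by 0.45 in females, both with overlap. *Mmp12* over *Timp1*, where both genes are low, was 0.22 ± 0.70 in male WT and 1.48 ± 0.85 in male KO mice, again with overlap.

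**Figure D4:**
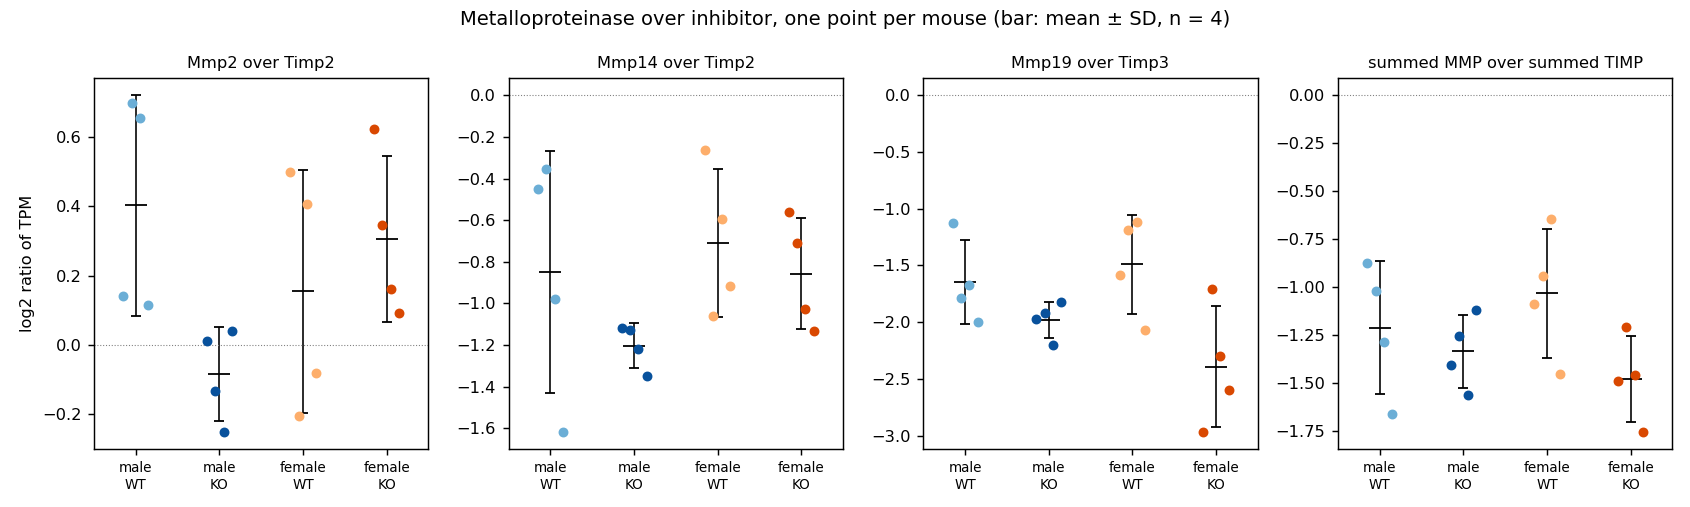
Log2 ratio of metalloproteinase to inhibitor level, each as TPM + 0.5, in the 4 groups (y axis, a scale of its own in each panel). The dotted line marks equal levels, points are mice and bars are the mean ± SD (n = 4). The *Mmp2* over *Timp2* ratios of male KO mice (-0.25 to 0.04) lie below those of male WT mice (0.11 to 0.70), and the other groups shown overlap between KO and WT.

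Markers of other cell types moved with several members, and their part in those results was not tested. The 15 macrophage markers, all found and none at 0 throughout a group, summed to 52.4 to 103 TPM in male WT and 132 to 193 TPM in male KO mice, and to 62.8 to 135 and 86.5 to 124 TPM in female WT and KO mice. In males 13 of them were tested and all 13 had the higher mean in KO mice, beside 79.9% of all genes. Of the 13, 11 had an unadjusted p under 0.05 in limma, beside 17.7% of all genes with a higher mean. The median log2 fold change was 0.98 for the 13 and 0.16 for all genes. *Cd68*, on this list, was among the genes that the study picked out from these male libraries. The male KO mice with the highest sums, 193 and 187 TPM, also had the highest *Mmp12*, and the male KO mouse with the lowest sum, 132 TPM, had the lowest. Female WT replicate 3, with a sum of 135 TPM, had 0.510 TPM of *Mmp12* and 0.198 TPM of *Timp1*.

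**Figure D5:**
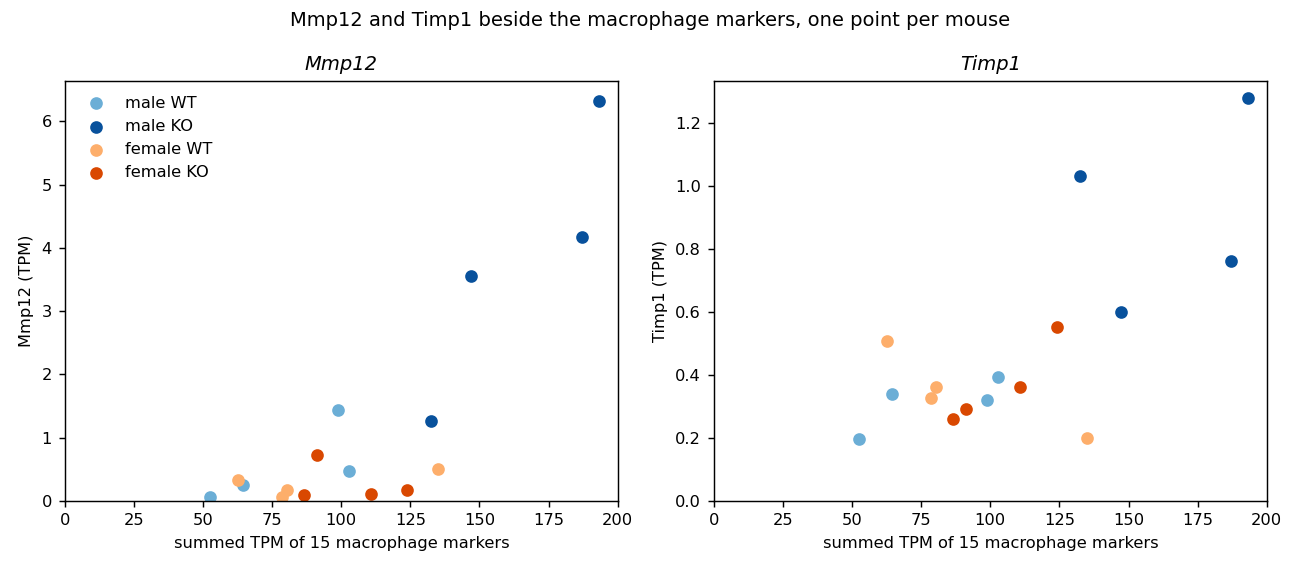
TPM of *Mmp12* and *Timp1* (y axes) against the summed TPM of 15 macrophage markers (x axis), with a point per mouse coloured by group. The 4 male KO mice (sums of 132 to 193 TPM) hold the highest *Timp1* values and 3 of the 4 highest sums of all mice, and a female WT mouse with a sum of 135 TPM has low values of both genes.

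Of the 12 markers of fibroblasts and adipose progenitors, a major source of MMPs and TIMPs in fat, 11 were tested in males, where 8 had an unadjusted p under 0.05 and a higher mean in KO mice and 1, the microfibril gene *Mfap5*, passed an adjusted p of 0.05 in limma as the 1 gene of the whole fit that did. Their sums were 219.6 to 459.7 TPM in male WT and 364 to 486 TPM in male KO mice, with overlap. In females 4 of the 11 tested had an unadjusted p under 0.05 and a higher mean in KO mice. The female sums were 346 to 412 TPM in WT and 353 to 597 TPM in KO mice. Over all genes, 17.7% in males and 11.6% in females had a higher mean in KO mice at that p. These shares also stand beside the counts of the marker lists that follow. Of the 10 endothelial markers, set beside *Timp3* and *Timp4*, 9 had an unadjusted p under 0.05 and a higher mean in female KO mice, with a median log2 fold change of 0.76. Their sums were 186 to 274 TPM in female WT and 311 to 607 TPM in female KO mice. Of 9 markers of pericytes and smooth muscle 5 had an unadjusted p under 0.05 and a higher mean in female KO mice, with sums of 132 to 160.2 and 174 to 288 TPM. In males 4 of 10 endothelial markers and 5 of 8 of pericytes and smooth muscle had an unadjusted p under 0.05 and a higher mean in KO mice, with median log2 fold changes of 0.36 and 0.40. Their male sums were 198 to 365 TPM in WT and 313 to 353 TPM in KO mice for endothelial cells, and 128 to 198 and 189 to 234 TPM for pericytes and smooth muscle. The neutrophil markers, set beside *Mmp9*, summed to only 2.52 to 15.3 TPM over all mice, and *Ly6g* and *Camp* were at 0 in every male library.

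Of the 17 other mouse MMP genes, 4 had a mean of at least 1 TPM over the 16 libraries and *Mmp1a*, *Mmp1b* and *Mmp10* were listed at 0 throughout. None of the 4 passed an adjusted p of 0.05 in limma in any comparison. In males 3 of them had an unadjusted p under 0.05 and a higher mean in KO mice, beside 17.7% of all genes. The median log2 fold change of the 4 was 0.59, and that of all genes 0.16. *Mmp28*, or epilysin, was 8.34 ± 1.48 TPM in male KO and 4.93 ± 1.06 TPM in male WT mice (SD; log2 fold change 0.71, limma adjusted p = 0.166), with no overlap. *Mmp23* was 2.81 ± 0.515 and 1.55 ± 0.475 TPM (log2 fold change 0.71, limma adjusted p = 0.179), also with no overlap. In males 9.54% of all genes had every KO mouse above every WT mouse. The membrane protease *Mmp15* was 7.18 ± 1.08 and 5.11 ± 1.37 TPM. In females none of the 4 had an unadjusted p under 0.05, beside 11.6% of all genes higher and 5.46% lower in KO mice. The female effect minus the male effect was -0.75 for *Mmp28* (limma adjusted p = 0.225) and -0.56 for *Mmp23* (limma adjusted p = 0.345).

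Of the 4 lists of related genes, that of the proteins MMPs cut had the highest median in males. Of 18 matrix genes 16 were tested there, and 13 had an unadjusted p under 0.05 and a higher mean in male KO mice, beside 17.7% of all genes. At that p none had a lower mean, and none passed an adjusted p of 0.05 in limma. The median log2 fold change was 0.71 (0.16 over all genes). Biglycan (*Bgn*), a small proteoglycan, was 51.3 ± 3.502 TPM in male KO and 28.0 ± 4.87 TPM in male WT mice (limma adjusted p = 0.121). *Col1a1*, a chain of fibrillar collagen, was 17.9 ± 0.876 and 7.28 ± 2.55 TPM (limma adjusted p = 0.123), and fibronectin (*Fn1*) was 9.86 ± 1.79 and 3.75 ± 1.19 TPM. The study also picked out *Fn1* and collagen genes from these male libraries, and reported *Col1a1* as induced in male KO mice by qPCR. For *Bgn*, *Col1a1* and *Fn1* every male KO mouse was above every male WT mouse, as for 9.54% of all genes. In females 6 of 15 had an unadjusted p under 0.05, all higher in KO mice, beside 11.6% of all genes. Among them were the basement membrane genes *Hspg2* (58.5 ± 12.7 against 36.6 ± 10.0 TPM), *Col4a1* (152 ± 39.3 against 96.4 ± 19.7 TPM) and *Col4a2*. The female effect minus the male effect had an unadjusted p under 0.05 for 8 of 15, lower in 7 of them. Over all genes 11.7% were lower and 2.51% higher at that p. *Col5a1* was at -0.84, *Col1a1* at -1.16 and *Fn1* at -0.89.

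Of 26 genes that regulate MMP activation or clearance, 17 were tested in males, and none passed an adjusted p of 0.05 in limma. At an unadjusted p under 0.05 there were 6, all with the higher mean in KO mice, beside 17.7% of all genes. *Pcolce*, an enhancer of procollagen processing, was 85.0 ± 6.42 TPM in male KO and 49.3 ± 14.5 TPM in male WT mice (limma adjusted p = 0.146). Its groups did not overlap, beside 9.54% of all genes with every male KO mouse above every male WT mouse. *Serpinf1*, encoding the secreted factor PEDF, was 44.7 ± 5.39 and 25.2 ± 9.15 TPM, and *Sparc*, a collagen-binding matrix protein, 603 ± 82.9 and 408.2 ± 66.9 TPM. In females 3 of 16 had an unadjusted p under 0.05, all higher in KO mice, beside 11.6% of all genes. Among them were the plasminogen activator *Plat* and the clearance receptor *Lrp1*. The female effect minus the male effect was -1.12 for *Pcolce* (limma adjusted p = 0.215) and -0.63 for *Furin*, a protease that activates MMP14 (limma adjusted p = 0.248).

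Of 23 ADAM and ADAMTS proteases, relatives of the MMPs, 13 were tested in each sex and none passed an adjusted p of 0.05 in limma. TIMP3 can block only some of these proteases. In males 4 had an unadjusted p under 0.05, all with the higher mean in KO mice, beside 17.7% of all genes. Among them were *Adam8* (1.65 ± 0.364 against 0.753 ± 0.448 TPM), *Adam17*, which sheds TNF, and *Adam15*. In females *Adam15* (53.0 ± 23.004 against 27.8 ± 5.59 TPM) and *Adamts1* had the higher and *Adam9* (12.6 ± 2.43 against 18.8 ± 2.67 TPM) the lower mean in KO mice at an unadjusted p under 0.05. Over all genes 11.6% were higher and 5.46% lower in female KO mice at that p. *Adam9* had a female effect minus male effect of -0.95 (limma adjusted p = 0.215). Between the WT mice of the 2 sexes, no gene of these 4 lists had an unadjusted p under 0.05 in limma, beside 3.43% of all genes.

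Likeness was taken for each of the 8 members with a mean of at least 1 TPM. The genes whose log2 levels followed a member most closely over the 16 libraries were named by Pearson's r. The values of r are a description across libraries that fall into 4 groups and whose read depth is not known. *Timp2* was followed most closely by *Fn1* (r = 0.948), *Fstl1* (0.948) and *Scara5* (0.941), and *Mmp12* by *Gltp* (0.948), *Lgals3* (0.940) and *Lrrc25* (0.937). For *Mmp2* they were *Rcn3* (0.934), *Tnfsf12* and *Snrnp70*, for *Mmp14* *P3h3* (0.898), *Sult5a1* and *Mical1*, and for *Mmp3* *Adcy5* (0.856), *Irf2bp2* and *Atxn1*. *Mmp19* was followed by *Gosr1*, *Rhoq* and *Hsdl2* (each 0.962), *Timp3* by *Procr* (0.948), *Mafk* and *Ywhah*, and *Timp4* by *Map3k6* (0.944), *Nfkbia* and *Gnl2*. No member was among the 3 genes closest to another.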

How the data were processed

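RNA sequencing libraries of whole BAT were prepared by the authors with a stranded mRNA kit. They quantified transcripts with kallisto 0.46.2 (the submitters' processing notes also name GRCm39) and deposited TPM values per transcript, scaled to the same total in each of the 16 libraries. Whether counting used the strand, and which annotation release was used, are not given in the sources used here. The authors tested counts with DESeq2, which TPM values do not allow. Of 137438 transcripts 135051 matched GENCODE mouse M21 and were summed by symbol. Log2(TPM + 0.5) values were tested with limma 3.58.1 (R 4.3.3, mean-variance trend) over genes with a mean of at least 1 TPM, each KO and WT pair of groups alone and the difference between sexes over all libraries, with Benjamini-Hochberg adjustment. Members under the minimum got an exact permutation test. The fit was tested on simulated data. Each library was taken as 1 mouse. The labels number the samples within a group and do not name the animals, so p-values measure the spread between these samples. TPM has no known read depth, so its precision could not be stated.

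Groups came from the sample labels. The members and the gene and marker lists were chosen with earlier results of these data known. All members were named in each comparison. From each list genes past the threshold, or otherwise up to 3 with the smallest p, were named, and genes alike to a member were the 3 with the highest r. The alternatives changed the pseudocount, TPM minimum, scaling, mitochondrial share, trend, samples in the fit and covariates, or left out each mouse. Promoter windows are from RefSeq (GRCm38.p6), and gene positions are from GENCODE on GRCm38.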

Additional observations from a re-analysis of the deposited data

Results flagged for a closer look

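The *Mmp12* level of female KO replicate 3, 0.722 TPM, stood apart from those of the other 3 female KO mice, 0.0911 to 0.177 TPM. Its gap to the nearest of them was 0.863 of the group's range, above Dixon's 95% critical value for 4 samples. It was 1 flag among 40 groups of 4 mice examined (10 genes in 4 groups), a test in which chance flags about 1 group in 20. In that mouse *Mmp12-207*, a transcript listed at 0 in the other 15 libraries, held 0.447 TPM, and its summed macrophage markers, 91.1 TPM, were within the range of its group. The cause was not tested.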

How the results depend on the processing

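Over 40 fold changes of the members, 687 alternative values were computed, of which 653 kept their direction and side of the threshold. Leaving out each mouse gave 0.83 to 1.09 for *Timp2* and 1.77 to 2.42 for *Mmp12* in males. *Timp2* in males passed the threshold with all 16 libraries in 1 fit. Directions turned in 33 values of 11 fold changes, 31 of them with 1 mouse left out, and none of the 11 had an adjusted or exact p under 0.05. The largest was *Mmp12* in female minus male WT mice, -0.32 in the reported fit and 0.023 without male WT replicate 4. Of the members under the TPM minimum, *Mmp9* in males reached 0.0058, *Mmp12* and *Timp1* in females 0.11 and -0.068, *Timp1* in the WT sexes -0.030 and the effect difference of *Mmp9* 0.035. A pseudocount of 0.1 moved *Mmp9* in the WT sexes from 0.25 to 0.47. The female effect minus the male effect of *Timp3* was 0.24 with the library label as covariate, and -0.27 to 0.16 with each mouse left out, and that of *Mmp2* was -0.13 to 0.27. Female minus male WT, *Mmp2* was 0.045 under median-of-ratios scaling, and leaving out each mouse gave -0.22 to 0.14 for *Mmp2*, -0.14 to 0.033 for *Mmp19* and -0.33 to 0.14 for *Timp4*.

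Of all genes, 1 passed in males in the reported fit, 2 with a pseudocount of 0.1, 0 with no TPM minimum, 7 with median-of-ratios scaling, 12 without mitochondrial transcripts, 6 with the library label as covariate and 40 with all 16 libraries in 1 fit. In females 0 passed, and 8 with the label as covariate and 5 with all 16 libraries. For the effect difference 0 passed, and 1 without the trend. For the WT sexes 8 passed, and 3 at a minimum mean of 5 TPM. Leaving out each mouse gave 0 to 5 in males, 0 to 9 in females, 0 to 3 for the effect difference and 5 to 11 for the WT sexes. In males the count was 0 without WT replicate 1, WT replicate 3 or KO replicate 3 and 5 without KO replicate 1 or WT replicate 4. In females it was 2 and 9 without KO replicates 1 and 2, and 1 and 3 without WT replicates 2 and 4. The effect difference had 3 without male KO replicate 1 and 1 without female WT replicate 4, and the WT sexes 5 without female WT replicate 2 or 3. The causes were not tested.

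With the replicate number as a block, 0 genes passed in males, 1 in females, 0 for the effect difference and 7 for the WT sexes. The numbers did not pair the mice, since same-numbered deviations correlated at -0.09 to 0.35 in males, -0.11 to 0.15 in females and -0.11 to 0.13 in WT mice, and 1 library in each comparison was closest to its own number. The label covariate could not be fitted for the WT sexes. The unknown read depth limits the low genes *Mmp9*, *Timp1* and *Mmp12* most.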
